A study of Mus musculus with 12 samples.

Results

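This account covers 10 genes, 9 that belong to the circadian clock or its output and Noct, the gene of nocturnin, and their mRNA was followed in mouse lung after an intratracheal protein, injurious ventilation or both. The genes are Dbp, Tef, Hlf, Per1, Per2, Per3, Cry1, Nr1d1, Nr1d2 and Noct, and they make up 10 of the 18193 genes that the array table names with a single symbol. A feature of this Affymetrix array is a probe set, a group of short probes read together, and 22 probe sets are annotated to exactly 1 of the 10 symbols. For each gene the probe set with the highest mean over the 12 arrays was used. The set of genes was chosen from measured values, because Dbp was lower and Noct higher in the treated lungs, so the values of these 2 genes are given as a description with no test. The other 8 were tested.

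The 12 arrays hold total RNA from lungs of mice aged 8 to 12 weeks and kept on a light-dark cycle of 12 h, in 4 groups of 3. Controls were given phosphate-buffered saline (PBS). The ventilation group, titled VALI and described as VILI, received breaths of 30 ml per kg from a ventilator for 4 h, a size that injures the lung by stretch. The rhPBEF group received recombinant human pre-B-cell colony-enhancing factor, the secreted form of the NAD-synthesising enzyme that the mouse gene Nampt encodes, into the trachea, with 20 µg for each mouse dissolved in water at 1.5 µl per g body weight. The remaining group received rhPBEF and the same ventilation. The labels give no strain, no time of day for treatment or tissue collection and no interval after instillation, and they do not say that the ventilated mice received saline. The labels do not state that the replicates were separate mice, so every p-value measures the spread between these arrays only.

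The mammalian clock is a transcription loop. CLOCK and BMAL1 bind E-boxes and drive the Per and Cry genes, whose proteins return to block them, and they also drive Nr1d1 and Nr1d2, whose products (REV-ERB alpha and beta) repress Bmal1 through ROR elements. Dbp, Tef and Hlf encode the PAR bZIP transcription factors, which bind D-boxes and pass the rhythm on to output genes. In lung the clock is known for its influence on neutrophil recruitment and inflammatory gene expression. Noct encodes a rhythmically expressed relative of the CCR4 deadenylases, the enzymes that shorten mRNA tails.

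Deposited log2 values ran from 2.99 to 15.02, and array medians from 6.997 to 7.07. The lung label was borne out by its defining epithelial genes: the lowest array value was 14.76 for Sftpc and 14.82 for Scgb1a1, and Foxj1, a gene of ciliated cells, read 8.55 or more, also above every array median. Genes entered the test when their probe set had a mean above 6.42, the 40th percentile of all sets, and all 10 genes did, with 20 of their 22 probe sets. The test was limma's moderated model over 12921 genes, and an adjusted p is a Benjamini-Hochberg value over all of them. In that fit 1.22% of genes passed 0.05 for rhPBEF against control, 0.00774% for ventilation against control and 8.79% for rhPBEF plus ventilation against control. By direction the shares were 0.936% higher and 0.286% lower for rhPBEF, and 3.93% higher and 4.86% lower for the combined treatment. With each array centred on its median the split moved from 121 higher and 37 lower to 138 and 19 for rhPBEF, and from 508 and 628 to 525 and 407 for the combined treatment. For the combined treatment 0.325% passed against ventilation and 0.00774% against rhPBEF, and 0% passed the interaction of both treatments. Microarray signal depends on each probe, so no level is compared between genes. Whether the arrays of 2 groups overlap is given below as a description. The share of all genes whose groups separate is not given here, and a gene short of 0.05 can separate from control too, as Tef did with both treatments.

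**Figure D1:**
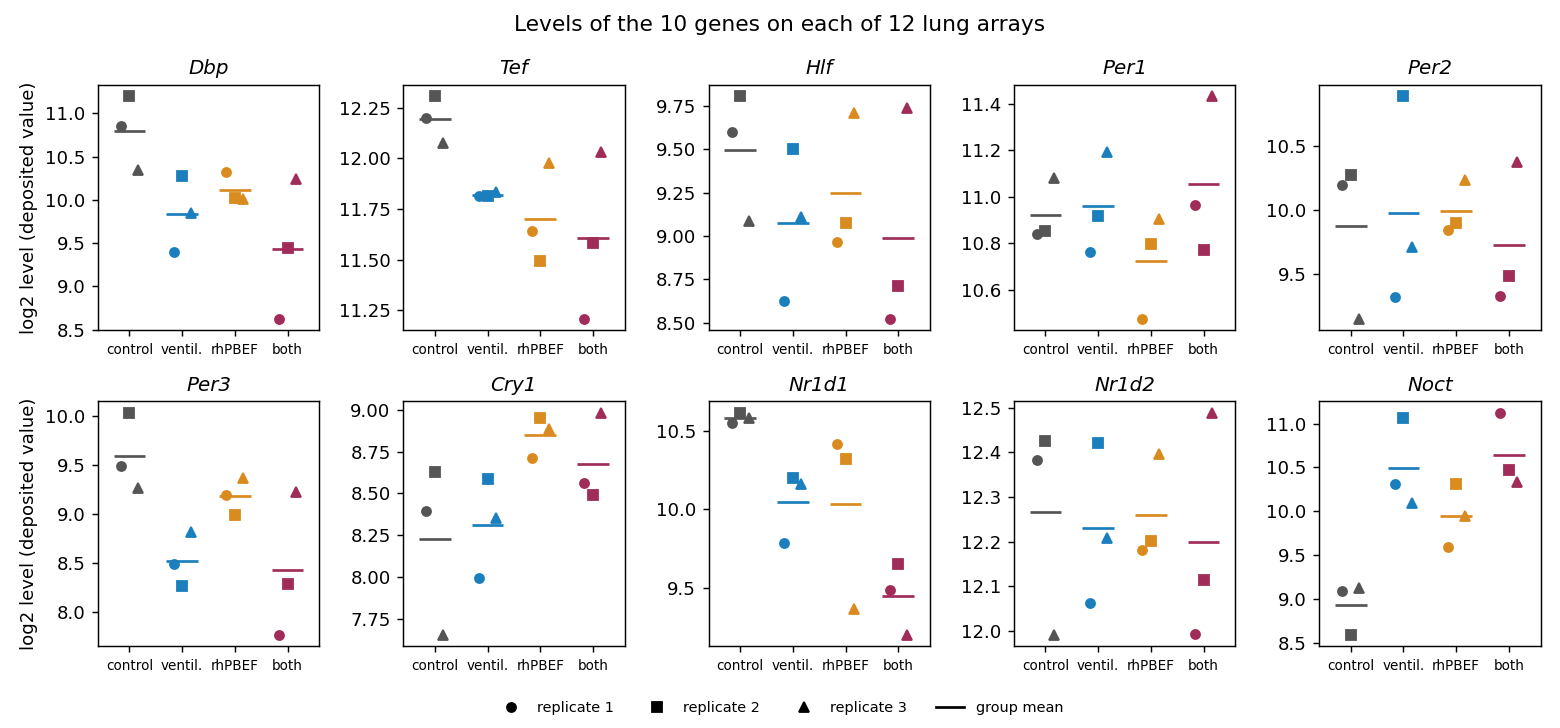
Log2 level (vertical axis, deposited value) of each of the 10 genes on the 12 arrays, by group (horizontal axis), with replicates as circle, square and triangle and the group mean as a line; each panel has its own scale. All 9 treated arrays lie below the control arrays for Dbp and above them for Noct, and replicate 3 of the combined treatment is the highest of its group in 8 of the 10 panels, all but Nr1d1 and Noct.

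Dbp encodes the D-box activator whose mRNA is among the most strongly cycling in mouse tissues. Its control arrays read 10.85, 11.20 and 10.34. The rhPBEF arrays read 10.32, 10.02 and 10.01, the ventilated arrays 9.40, 10.28 and 9.84, and the arrays of the combined treatment 8.63, 9.44 and 10.25. All 9 treated arrays lay below the lowest control array, though by only 0.02 for rhPBEF replicate 1, and control replicate 3 was nearer to the treated arrays than the other controls were. The difference from control was -0.68 ± 0.36 (SE) with rhPBEF, -0.96 with ventilation and -1.36 with both, the last a 2.57-fold lower level. Between treated groups the arrays overlapped: the combined treatment lay 0.40 below ventilation and 0.68 below rhPBEF on average. Both values rested on single arrays of the combined treatment: without its replicate 1 they were 0.0027 and -0.27, and without its replicate 3 -0.81 and -1.08. A separate Dbp probe set gave differences of -0.71, -0.93 and -1.32 in the same order.

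Tef, a D-box activator of the same family, read 12.20, 12.31 and 12.07 in control, 11.64, 11.49 and 11.97 with rhPBEF, 11.81, 11.81 and 11.83 with ventilation, and 11.21, 11.58 and 12.03 with both. No treated group overlapped control. The mean difference was -0.49 with rhPBEF, -0.37 with ventilation and -0.59 ± 0.18 (SE) with both, and limma's adjusted p was 0.194, 0.352 and 0.0666, so none passed 0.05. The result for the combined treatment depended on the probe set and on single arrays. Another Tef probe set gave -1.11 with a limma adjusted p of 0.0405, and the remaining set gave -0.62, near the main set. The mean of all 3 sets gave -0.77 with 0.0351. Without replicate 3 of the combined treatment the main set gave -0.80 with 0.00687, and without replicate 1 of that treatment it gave -0.39.

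Hlf, the remaining PAR bZIP gene, read 9.60, 9.81 and 9.09 in control and 8.97, 9.08 and 9.71 with rhPBEF. With ventilation it read 8.62, 9.50 and 9.11, and with both 8.52, 8.71 and 9.74. Every treated group overlapped control. The differences of -0.25, -0.42 and -0.51 ± 0.34 (SE) had limma adjusted p-values of 0.742, 0.548 and 0.36, and the 95% interval for the combined treatment ran from -1.25 to 0.24. Leaving out 1 array moved these values to between -0.48 (without rhPBEF replicate 3) and -0.09 (without control replicate 2) with rhPBEF, between -0.63 and -0.20 (without ventilation replicates 2 and 1) with ventilation, and between -0.88 and -0.27 (without replicates 3 and 1 of the combined treatment) with both. A further Hlf probe set gave -0.19, -0.25 and -0.33.

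**Figure D2:**
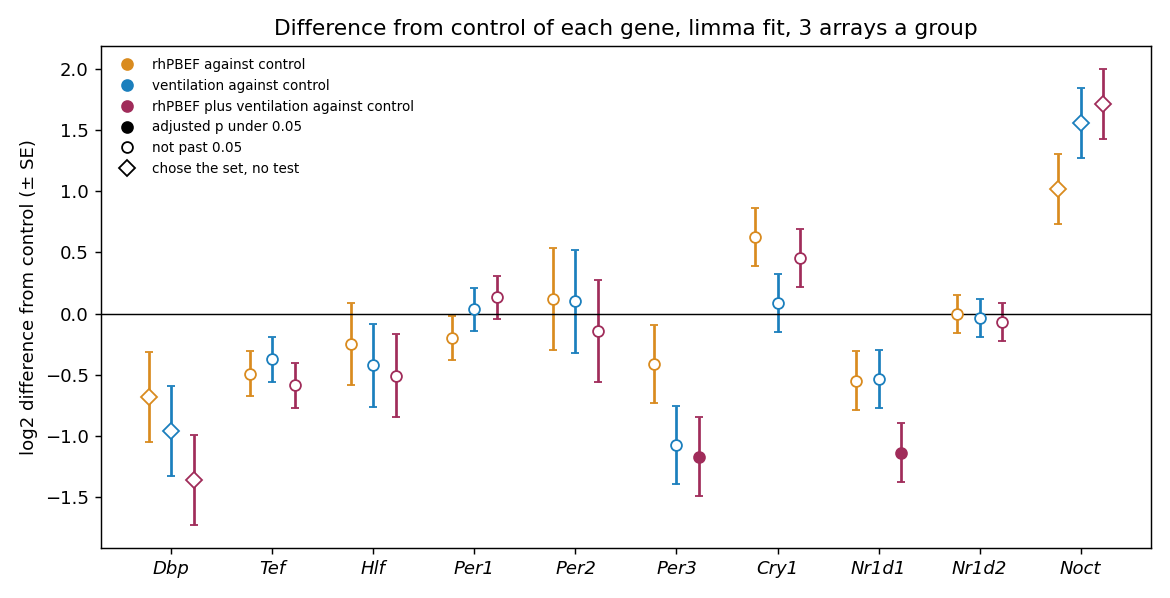
Log2 difference from control (vertical axis) of the 10 genes for rhPBEF, ventilation and both, as limma estimates with their SE over 3 arrays a group; filled circles passed an adjusted p of 0.05, open circles did not and diamonds mark the 2 genes that chose the set. The filled points are Per3 at -1.17 and Nr1d1 at -1.14, both for the combined treatment.

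The period genes encode the loop's repressors. Per3, the member of the family that is least needed for rhythm itself, read 9.49, 10.04 and 9.26 in control and 9.20, 8.99 and 9.37 with rhPBEF. It read 8.49, 8.27 and 8.82 with ventilation and 7.77, 8.29 and 9.23 with both. The ventilated arrays and those of the combined treatment all lay below control, but replicate 3 of the combined treatment was only 0.03 below the lowest control, and the rhPBEF arrays overlapped control. Per3 fell by 1.17 ± 0.32 (SE) with both treatments, 2.25-fold, with a limma adjusted p of 0.0476. The differences of -0.41 with rhPBEF and -1.07 with ventilation had adjusted p-values of 0.526 and 0.19. Against ventilation alone the combined treatment differed by -0.10, with a 95% interval from -0.80 to 0.61.

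The call for Per3 lay at the threshold. Its adjusted p was 0.0566 with no filter, 0.0546 with arrays centred, 0.0903 with only the 6 arrays compared and 0.0827 with the mean of the Per3 sets past the filter. It passed in 2 of the 12 fits that left out 1 array: 0.0031 without replicate 3 of the combined treatment and 0.0421 without ventilation replicate 2; in the other 10 fits it ran from 0.0501 to 0.188, the latter without replicate 1 of the combined treatment. Per3 has 6 probe sets. The 4 past the filter gave differences of -1.17, -1.04, -0.64 and -0.61 for the combined treatment, and the 2 below it gave -0.57 and -0.04. For the sets other than the one used only the difference is given, so the call is that of the main set.

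The promoter of Per3 is shown because, of the 9 genes with a promoter entry, it alone matches the D-box, the element bound by the Dbp, Tef and Hlf proteins. RefSeq's promoter table of GRCm38.p6 holds 11 entries for these 9 genes (Per2 has none given), and the 250 bases before the start of transcription were searched on both strands for 5 motifs: the E-box CACGTG, the variant E-box CACGTT, the D-box TTATGTAA, the ROR element core AGGTCA and the cAMP response element TGACGTCA. None of these spellings contains another. Among 32851 promoters of that length 6.02% held the E-box, 3.85% its variant, 0.819% the D-box, 14% the ROR core and 1.55% the cAMP element. The window of Per3 lies at chr4:151044666-151044915 on the minus strand. Its D-box matches, in capitals, start 205 and 158 bases before the start.
Per3: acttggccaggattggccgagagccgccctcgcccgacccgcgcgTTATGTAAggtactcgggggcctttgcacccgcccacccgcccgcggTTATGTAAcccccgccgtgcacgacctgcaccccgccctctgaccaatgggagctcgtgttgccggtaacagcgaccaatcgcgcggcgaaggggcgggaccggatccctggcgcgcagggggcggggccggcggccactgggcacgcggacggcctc
A match in these letters is a description and was not tested as a bound site. The window of Dbp, of Noct and of the other Per1 start held none of the 5 motifs, which says nothing about factors acting elsewhere.

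Per1, the member of the family most readily induced by hormones and cAMP, read 10.84, 10.85 and 11.08 in control and 10.48, 10.80 and 10.90 with rhPBEF. With ventilation it read 10.76, 10.92 and 11.19, and with both 10.96, 10.77 and 11.43. All groups overlapped control. The differences of -0.20, 0.04 and 0.13 ± 0.18 (SE) had limma adjusted p-values from 0.586 to 0.937, and the 95% interval for the combined treatment, -0.26 to 0.52, leaves out a change of 2-fold. Per1 has a single probe set.

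Per2 encodes a core repressor of the loop. It read 10.19, 10.28 and 9.15 in control, 9.85, 9.90 and 10.23 with rhPBEF, 9.32, 10.89 and 9.71 with ventilation, and 9.33, 9.49 and 10.37 with both. Control replicate 3 was the lowest of all 12 arrays and ventilation replicate 2 the highest. The differences of 0.12, 0.10 and -0.14 ± 0.42 (SE) had adjusted p-values from 0.853 to 0.923, and the interval for the combined treatment ran from -1.06 to 0.78, wide enough to hold a 2-fold fall.

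Cry1 encodes the late repressor of the loop. It read 8.40, 8.63 and 7.65 in control, 8.71, 8.95 and 8.88 with rhPBEF, 7.99, 8.59 and 8.36 with ventilation, and 8.56, 8.49 and 8.98 with both. The rhPBEF arrays lay above all controls, while the other treated groups overlapped them. The differences were 0.62 ± 0.24 (SE) with rhPBEF, 0.09 with ventilation and 0.45 with both, at limma adjusted p-values of 0.202, 0.874 and 0.241. Without control replicate 3 the difference was 0.34 with rhPBEF, -0.20 with ventilation and 0.17 with both.

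Nr1d1 and Nr1d2 encode the REV-ERB receptors, heme-binding repressors of Bmal1. Nr1d1 read 10.55, 10.62 and 10.58 in control, 10.41, 10.32 and 9.36 with rhPBEF, 9.78, 10.20 and 10.16 with ventilation, and 9.49, 9.65 and 9.20 with both. Every treated array lay below every control array, and the arrays of the combined treatment lay below the ventilated arrays as well. Nr1d1 fell by 1.14 ± 0.24 (SE) with both treatments, 2.20-fold, with an adjusted p of 0.0221. With rhPBEF and with ventilation the differences were -0.55 and -0.53, with adjusted p-values of 0.256 and 0.317. The combined treatment differed by -0.60 from ventilation and by -0.59 from rhPBEF, at adjusted p-values of 0.438 and 0.999.

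The spread of Nr1d1 was narrow in control, with an SD of 0.03, and wide with rhPBEF, with an SD of 0.58. Replicate 3 of rhPBEF set that spread: the difference of rhPBEF from control was -0.21 without it. For the combined treatment the adjusted p ran from 0.00326 to 0.0842 over the 12 fits that left out 1 array. It was above 0.05 in 5 of them, at 0.0784, 0.0754 and 0.0686 without control replicates 1, 2 and 3 and at 0.0842 and 0.059 without replicates 1 and 2 of the combined treatment, while the difference stayed between -1.24 and -1.01.

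The window of Nr1d1 is shown as that of the other gene past the test. It lies at chr11:98775378-98775627 on the minus strand and holds 1 match to the variant E-box, in capitals on the opposite strand, which starts 28 bases before the start. Short stretches with the matches of 4 further genes are set beside it: an E-box 127 and 138 bases before the 2 starts of Tef, 166 bases before a start of Per1 and 60 bases before that of Cry1, and the cAMP response element 9 bases before that of Hlf. The Tef stretches lie at chr15:81802531-81802566 and chr15:81811261-81811296, that of Per1 at chr11:69098768-69098803, that of Cry1 at chr10:85185094-85185129 and that of Hlf at chr11:90390918-90390941; those of Cry1 and Hlf are on the minus strand and the others on the plus strand. The stretch of Cry1 opens with the last 2 bases of its variant E-box, in capitals as well.
Nr1d1: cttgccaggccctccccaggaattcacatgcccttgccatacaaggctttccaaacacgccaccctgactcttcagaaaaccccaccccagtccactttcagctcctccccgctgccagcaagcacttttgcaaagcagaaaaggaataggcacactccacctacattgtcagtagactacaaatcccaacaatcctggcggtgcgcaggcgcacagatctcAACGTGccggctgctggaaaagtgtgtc
Tef, upstream start: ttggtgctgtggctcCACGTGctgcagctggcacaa
Tef, downstream start: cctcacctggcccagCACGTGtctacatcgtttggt
Per1: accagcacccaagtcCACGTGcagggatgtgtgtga
Cry1: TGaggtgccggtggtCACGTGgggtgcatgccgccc
Hlf: gcgcggtgcgggcccTGACGTCAc
An E-box stood before genes whose differences from control with both treatments were -0.59 (Tef), 0.13 (Per1) and 0.45 (Cry1), none of them past the test. The ROR core stood in the window of Nr1d2, 77 bases before the start, and in that of Per1, 137 bases before the same start as its E-box.

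Nr1d2 had the smallest difference from control of the 10 genes with rhPBEF and with both treatments. It read 12.38, 12.43 and 11.99 in control, 12.18, 12.20 and 12.40 with rhPBEF, 12.06, 12.42 and 12.21 with ventilation, and 11.99, 12.12 and 12.49 with both. The groups overlapped throughout. The differences of -0.01, -0.04 and -0.07 ± 0.16 (SE) had adjusted p-values of 0.989, 0.926 and 0.814, and the 95% interval with both treatments ran from -0.41 to 0.27. Whether Nr1d1 and Nr1d2 differed in their response was not tested.

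**Figure D3:**
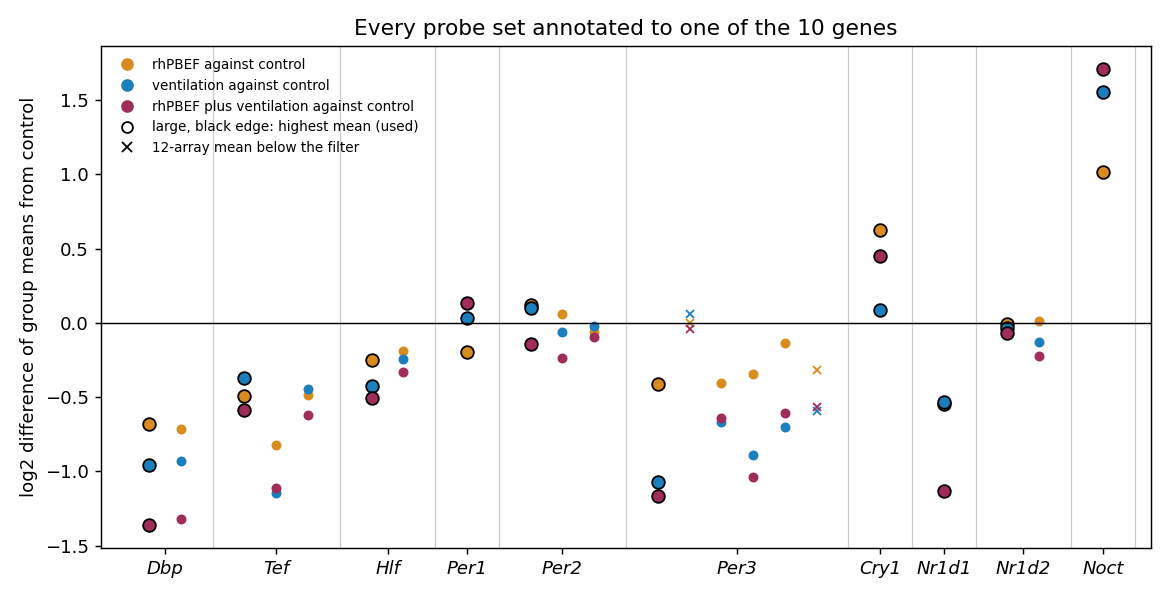
Difference of group means from control (vertical axis, log2) for each of the 22 probe sets, grouped by gene along the horizontal axis, with the set used drawn large and sets whose 12-array mean was below the filter as crosses. The sets of Dbp lie close together, those of Per3 run from -1.17 to -0.04 for the combined treatment, and Per1, Cry1, Nr1d1 and Noct have 1 set each.

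Noct read 9.09, 8.58 and 9.13 in control. It read 9.59, 10.31 and 9.94 with rhPBEF, 10.31, 11.06 and 10.10 with ventilation, and 11.13, 10.47 and 10.34 with both. All 9 treated arrays lay above the highest control array, by 0.46 or more. The arrays of the combined treatment also lay above those of rhPBEF alone, but narrowly, with a lowest level of 10.34 against a highest of 10.31. The difference from control was 1.02 ± 0.29 (SE) with rhPBEF, 1.56 with ventilation and 1.71 with both, or 2.02-fold, 2.95-fold and 3.28-fold. Both treatments together differed by 0.70 from rhPBEF and by 0.15 from ventilation, whose arrays overlapped. The interaction, the combined difference minus the sum of the separate ones, was -0.86 ± 0.41 (SE) for Noct and 0.28 ± 0.52 (SE) for Dbp, and without replicate 3 of the combined treatment the value for Dbp was -0.13. Without replicate 1 of the combined treatment Noct differed by -0.09 from ventilation. A further probe set is annotated to Noct together with other genes and was not used.

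Of the 8 tested genes 2 passed for the combined treatment, Per3 and Nr1d1, both lower, beside 4.86% of all genes that passed as lower. None passed in the other 5 comparisons with limma, where 3 (rhPBEF), 2 (ventilation), 1 (both against ventilation), 2 (both against rhPBEF) and 0 (interaction) had an unadjusted p under 0.05. Over all genes that unadjusted share was 18.3%, 15.5%, 9.98%, 3.77% and 2.23% in the same order. Array quality weights, whose fit stopped before it converged, called 7579 of the 12921 genes for the combined treatment, and 6 of the 8 passed for it. Members of the 8 also passed for ventilation and for rhPBEF with these weights, at counts given further below beside those of all genes. The median difference of the 8 genes was -0.22 with rhPBEF, -0.21 with ventilation and -0.33 with both, beside -0.07, -0.04 and -0.06 over all 12921 genes. The 3 comparisons share the control arrays, so their values are set side by side only.

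Arrays of a group differed in these genes together. In replicate 3 of the combined treatment 8 of the 10 genes lay above their group mean, by 0.38 on average over the 10, while in replicates 1 and 2 of that group 8 lay below. In ventilation replicate 1 all 10 lay below their group mean, by 0.27 on average, and in control replicate 3 the same was true of 8 genes, by 0.25 over the 10. The exceptions in replicate 3 of the combined treatment were Nr1d1, at -0.25, and Noct, at -0.31. These shared deviations are of the size of several differences from control given above. How many of all genes lay above or below their group mean on the same arrays is not given here. The counts are therefore not read as particular to these 10 genes. Replicate 3 of the combined treatment also mattered over all genes: without it the calls for that treatment against control went from 1136 to 2497.

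**Figure D4:**
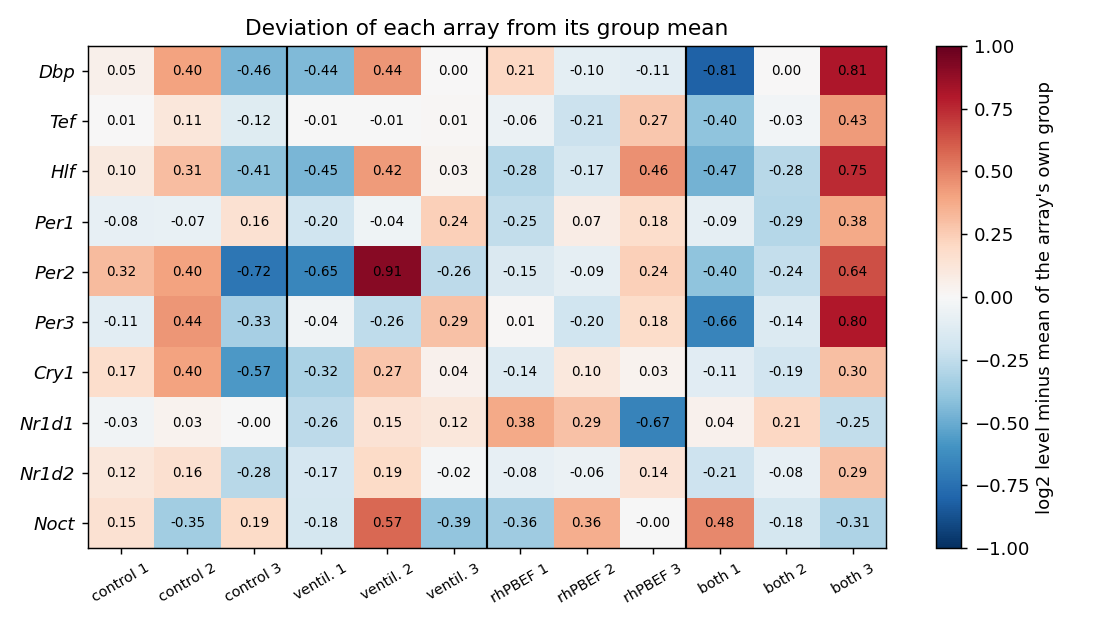
Deviation of each array (horizontal axis) from the mean of its own group for each of the 10 genes (vertical axis), as log2 values printed in the cells and coloured from blue (below) to red (above). Columns of 1 colour are arrays in which most genes deviate together, as in ventilation replicate 1 and replicates 1 and 3 of the combined treatment.

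Other cell types moved with the groups. In bulk lung, fewer cells of a type and less RNA per cell cannot be told apart. The mean of 7 neutrophil markers lay between -0.22 and 0.19 of the control mean in control arrays, 2.51 to 2.93 above it with rhPBEF, 0.90 to 3.46 with ventilation and 2.16 to 3.67 with both. Of the 7, 3 passed as higher with rhPBEF, 0 with ventilation and 6 with both. Endothelial markers (6 genes, 1 of them lower with both) lay 0.20 to 0.43 below control with ventilation and 0.04 to 0.45 below with both. With rhPBEF their mean ran from -0.21 to -0.12, beside -0.09 to 0.10 in control arrays. The mean of 5 fibroblast markers ran from -0.56 to 0.01 with ventilation, -0.24 to 0.20 with rhPBEF and -0.07 to -0.04 with both, beside -0.12 to 0.18 in control arrays. The mean of 8 epithelial markers stayed between -0.08 and 0.04 in treated arrays. The mean of 6 adipocyte markers lay at -0.40 to 0.74 in control arrays, -0.54 to -0.39 with rhPBEF, -1.42 to -0.81 with ventilation and -0.68 to -0.57 with both, where 2 of the 5 tested were lower. Of 7 alveolar macrophage markers 1 was higher with rhPBEF, and with both 1 was higher and 2 lower, with means from -0.27 to -0.05. With ventilation their means ran from -0.36 to 0.20. Cardiac muscle markers (8 genes) had means from -0.46 to 0.67 in control arrays and from -1.90 to 0.11 with ventilation. They ran from -1.05 to 0.09 with rhPBEF and from -0.81 to -0.27 with both. Smooth muscle markers (5 genes) had means from -0.11 to 0.07 in control arrays and from -1.36 to -0.11 with ventilation. These ran from -0.59 to 0.18 with rhPBEF and from -0.64 to 0.05 with both. None of either list passed. The lowest of these adipocyte, cardiac and smooth muscle values were all those of ventilation replicate 1. In that array all 10 genes of the set, Noct among them, lay below their group means. Replicate 1 of the combined treatment, lowest in Dbp and Per3 and highest of its group in Noct, had the highest neutrophil mean, 3.67, and replicate 3 the lowest of that group, 2.16. The other treated groups were not ordered in this way. With rhPBEF, replicate 1 had the highest neutrophil mean, 2.93, but the highest Dbp and the lowest Noct of its group. With ventilation, replicate 1 had the highest, 3.46, and the lowest Dbp, while replicate 3 had the lowest, 0.90, and the lowest Noct. The mean of 8 skeletal muscle genes was 2.07 above control in ventilation replicate 3 and 2.96 in rhPBEF replicate 2. Without these 2 arrays, an alternative chosen after seeing the data, the adjusted p for the combined treatment was 0.0619 for Per3 and 0.0291 for Nr1d1. The part of other cell types in the results was not tested.

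Genes around the clock and Noct were grouped in 6 lists with 64 genes in all, of which 56 were tested; Bhlhe41, Rorb, Fbxl21 and Nr1i3 lay below the filter, and the remaining 4 were not analysed here. With rhPBEF 2 rose (3.57% of the 56, beside 0.936% of all genes) and 0 fell, and with ventilation none passed. With both treatments 4 rose and 2 fell, 7.14% and 3.57% of the 56, beside 3.93% and 4.86% of all genes. Counts this small are read as values only, here and in the single lists. Of the core loop's 9 tested genes 2 rose with both. Bhlhe40, which encodes DEC1, a repressor that competes for E-boxes, read 10.63, 10.41 and 10.16 in control, 11.50, 11.60 and 11.42 with rhPBEF, and 11.79, 11.44 and 11.71 with both. It rose by 1.10 with rhPBEF (adjusted p = 0.0194) and by 1.24 with both (adjusted p = 0.00659), and the call for the combined treatment held in all 22 alternative fits. With ventilation Bhlhe40 differed by 0.74 (limma adjusted p = 0.151). Nfil3, which encodes E4BP4, a repressor that binds the D-box in place of the PAR bZIP factors, read 6.75, 6.16 and 6.84 in control and 9.02, 8.26 and 8.65 with both, higher by 2.06 with an adjusted p of 0.0321. Its ventilated arrays read 8.18, 10.12 and 7.74, a difference of 2.09 with an adjusted p of 0.136. The list's median with both was -0.05, beside -0.06 over all genes.

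Bmal1, listed as Arntl, and Clock were added here, after their values were seen, because they drive the loop. Neither passed. Bmal1 read 7.31, 7.22 and 8.32 in control and 7.71, 7.54 and 6.93 with both, a difference of -0.23 with an adjusted p of 0.686, while the difference was 0.58 with ventilation (adjusted p = 0.396) and 0.02 with rhPBEF (adjusted p = 0.985). Its level in control replicate 3 was the highest of that group, where Dbp, Per2 and Cry1 were the lowest of theirs. Clock differed by -0.05 with both (adjusted p = 0.752), by 0.19 with ventilation (adjusted p = 0.358), whose arrays lay above control, and by -0.04 with rhPBEF (adjusted p = 0.852).

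Among the 9 tested clock kinases, ligases and cofactors 1 fell with both treatments, Btrc, by 0.39 (adjusted p = 0.0471); it encodes a beta-TrCP ligase subunit that marks period proteins for destruction. That call was lost in 12 of 22 alternative fits, among them those without any 1 control or rhPBEF array and without replicate 1 or 2 of the combined treatment, with adjusted p-values up to 0.191. None of the 7 tested targets of the clock and of PAR bZIP factors passed. The 3 with the largest differences were Alas1, the first enzyme of heme synthesis, at -0.66 (adjusted p = 0.0802), Klf10, a clock-controlled Krüppel-like factor, at -0.41 (adjusted p = 0.0936), and Nampt, the mouse gene of PBEF itself, at 0.37 (adjusted p = 0.0732). Of 11 genes of deadenylases and their subunits, only some of which share nocturnin's enzyme family, 1 fell with both: Cnot8, a catalytic subunit of the CCR4-NOT complex, by 0.36 (adjusted p = 0.0287).

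Genes induced by glucocorticoids, a hormone signal known to set Per1, were listed with 10 members. Cebpd, an acute-phase transcription factor, rose by 1.03 with rhPBEF (adjusted p = 0.0118) and by 1.35 with both (adjusted p = 0.00187). With ventilation Cebpd differed by 0.85 (limma adjusted p = 0.0909). The mean of all its probe sets gave smaller differences, 0.66 with rhPBEF and 0.82 with both. The other 9 did not pass, and the list's median with both was 0.31. Of 10 cAMP-induced and immediate early genes Junb, a subunit of AP-1, rose by 1.77 with both (adjusted p = 0.0254) and the other 9 did not pass. Junb differed by 1.42 with rhPBEF and by 1.21 with ventilation, at limma adjusted p-values of 0.113 and 0.214. The median of that list was 0.17 with rhPBEF, 1.19 with ventilation and 0.76 with both. In ventilation replicate 2, the highest ventilated array of Noct, Dbp and Per2, several of these genes stood far above the rest, such as Nfil3 in the loop at 10.12 and Junb at 11.63 against 10.08 and 9.97 in the other ventilated arrays. The calls of Junb, Nfil3 and Cnot8 with both treatments were lost without any 1 control array and without replicate 1 or 2 of the combined treatment, with adjusted p-values up to 0.12, 0.139 and 0.126. Cnot8 also lost its call with only the groups compared (limma adjusted p = 0.0531). With rhPBEF, Bhlhe40 and Cebpd lost theirs without control replicate 2 or 3, without rhPBEF replicate 1 or 2 and without the 2 muscle-rich arrays, at up to 0.115 and 0.0711.

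**Figure D5:**
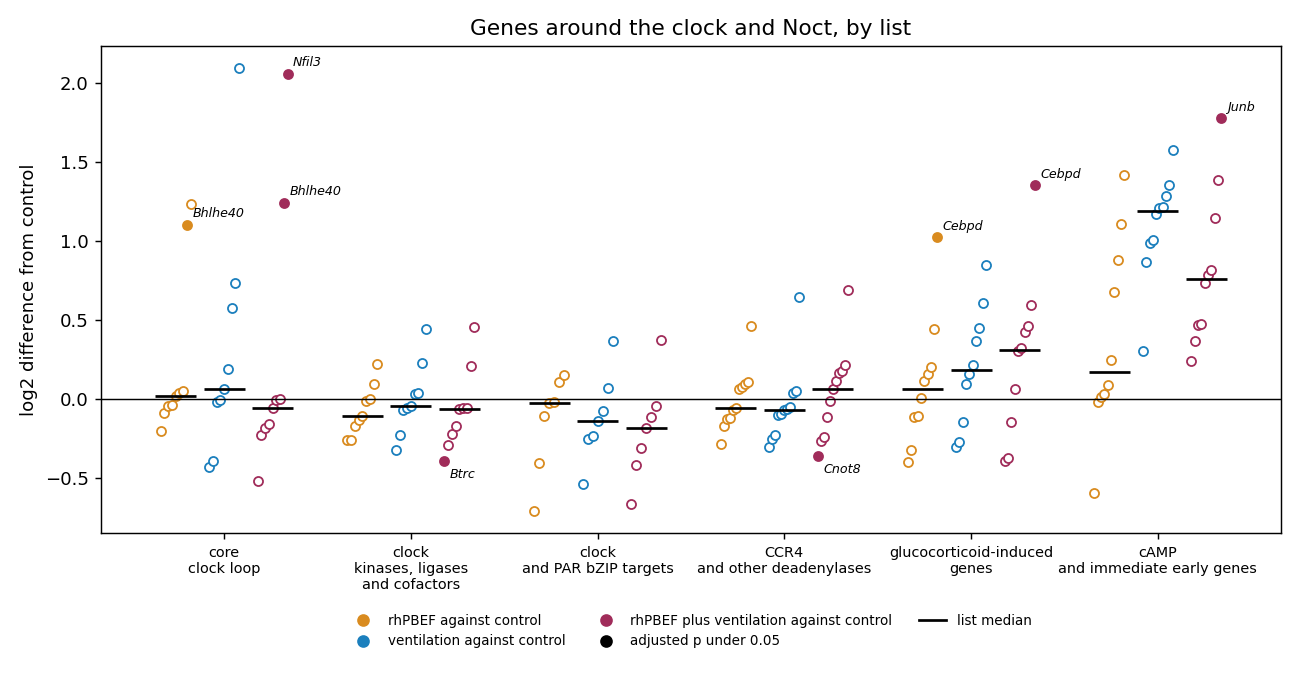
Log2 difference from control (vertical axis) of the 56 tested genes of 6 lists (horizontal axis) for rhPBEF, ventilation and both, with list medians as bars; filled and named points passed an adjusted p of 0.05. The filled points are Bhlhe40 and Cebpd for rhPBEF, and Nfil3, Bhlhe40, Btrc, Cnot8, Cebpd and Junb for both treatments.

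Likeness of pattern was measured as the root-mean-square difference from a gene over the 12 arrays, each gene first centred on its own mean. Uncharacterised transcripts and genes with numbered Fam names were left out of the 5 nearest, but not of the ranks among 12920 genes. The 5 genes nearest to Dbp were Prickle1 (0.23), Nuak1 (0.29), Dusp14 (0.32), Per3 (0.32) and Lbh (0.33), where Dbp's own spread about its mean was 0.65. Among 12920 genes Per3 ranked 4, Hlf 22, Tef 78 and Nr1d1 487, while Per2 ranked 1078, Nr1d2 1233, Per1 9337 and Cry1 10444. The ranking is built on the values of Dbp, which helped to choose the set. Prickle1 differed from control by -0.52 with rhPBEF, -0.66 with ventilation and -0.997 with both. The genes nearest to Noct were Fosl2 (0.24), Rcan1 (0.25), Spry4 (0.25), Arid5a (0.29) and Gpr171 (0.29), against its own spread of 0.75. Fosl2, a Fos-related subunit of AP-1, differed from control by 0.995, 1.03 and 1.42, and Rcan1, a calcineurin inhibitor, by 0.76, 1.19 and 1.34. These values describe the arrays and carry no test.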

How the data were processed

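Total RNA was labelled with biotin and hybridised to Affymetrix arrays. The authors deposited one value per probe set and array, used here as log2 expression because the range and medians are those of a log2 scale. The submitters' processing notes name MAS5 and GCRMA without saying which of them made these values, and any later step is not given in the sources used here. Probe sets were named through the platform annotation: 34945 had 1 symbol, 932 several and 9160 none, and 64 control sets were left out.

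Groups came from the sample titles and treatment protocols. A description field that calls every sample control was not used. limma 3.58.1 in R 4.3.3 fitted 4 group means to all 12 arrays (8 residual degrees of freedom) for 12921 genes above the 40th percentile of mean signal. Dbp and Noct got no test. The 3 arrays of a group limit the precision, and an exact permutation test of 3 against 3 could not go below 0.1.

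The members and lists were chosen with earlier results of these data known. Named from each list were the genes past 0.05 against control or, with none, the 3 largest differences with both treatments. Alternatives changed the filter, scaling, variance model, weights, probe sets, arrays and replicate block. The fit was also run on simulated data with independent noise for each gene, unlike these arrays, and no result here rests on that run. Promoters are RefSeq's. Plots used matplotlib 3.10.9 (Python 3.11.15).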

Additional observations from a re-analysis of the deposited data

How the results depend on the processing

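The differences of Dbp and Noct from control kept their direction under every alternative run. Nr1d1, lower with both treatments, kept its call in all alternatives except the 5 fits without 1 array given above. Per3 lost its call in the fits given above, which do not cover its other probe sets, given by their differences only. Of the 8 tested genes 1 in place of 2 passed for the combined treatment with no filter, with arrays centred on their median, with only the groups compared and without the 2 arrays high in skeletal muscle genes. With array quality weights 1 passed for rhPBEF (Tef), 4 for ventilation, 6 for both against control and 1 for both against rhPBEF (Per3), among 1626, 1123, 7579 and 670 genes in all, and 3029 genes passed for both against ventilation; the cause was not tested.

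Leaving out 1 array at a time, the number of the 8 genes past the test with both treatments ran from 0 to 3 and was 0 in the other comparisons. The number of all genes ran from 44 (without control replicate 2) to 352 (without replicate 3 of the combined treatment) for rhPBEF, from 0 to 43 (without ventilation replicate 3) for ventilation, from 152 (without replicate 1 of the combined treatment) to 2497 (without its replicate 3) for both, from 13 to 405 for both against ventilation, from 0 to 3 for both against rhPBEF and from 0 to 4 for the interaction. With only the groups compared, 636, 0, 3 and 0 genes passed for rhPBEF, ventilation, both against ventilation and both against rhPBEF. Without the 2 muscle-rich arrays the counts were 68 for rhPBEF, 34 for ventilation, 0 for both against rhPBEF and 2 for the interaction. For ventilation 4 passed with a mean-variance trend and 4 with the mean of all sets of a gene, which gave 2 for both against rhPBEF.

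Small differences changed sign. With array quality weights Per2 gave -0.12 with rhPBEF and -0.63 with ventilation, Per1 -0.043 with ventilation and -0.10 with both, and Cry1 -0.33 with ventilation. Nr1d2 with rhPBEF gave 0.019 after quantile normalisation, 0.025 with arrays centred, 0.0047 with the mean of its sets, 0.016 with its other set and 0.023 without the muscle-rich arrays, which also turned Per1 with ventilation to -0.082 and Per3 of both against ventilation to 0.051. Other probe sets gave -0.061 and -0.018 for Per2 with ventilation, -0.062 for Per2 with rhPBEF and 0.063 for Per3 with ventilation. With 1 array left out, Per2 ran from -0.24 to 0.32 with rhPBEF, -0.36 to 0.43 with ventilation and -0.50 to 0.058 with both; Nr1d2 from -0.14 to 0.074, -0.17 to 0.049 and -0.21 to 0.036; Per1 from -0.082 to 0.13 with ventilation and -0.056 to 0.28 with both; Cry1 from -0.20 to 0.29 with ventilation; and, of both against ventilation, Per3 from -0.50 to 0.24, Dbp from -0.81 to 0.0027 and Noct from -0.088 to 0.44. The Dbp interaction ran from -0.13 to 0.68. Without the muscle-rich arrays Noct of both against ventilation was -0.044.

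The replicate numbers were not taken to pair the arrays: over 18 pairs with the same number the deviations from group means correlated at -0.21 to 0.53, above 0.1 in 7, and over 36 pairs with different numbers at -0.53 to 0.33, above 0.1 in 11. With the replicate block 186 genes passed for rhPBEF, 0 for ventilation, 1263 for both, 49 for both against ventilation and 0 for both against rhPBEF, and 2 of the 8 clock genes passed for both. The table holds no detection call or background value, so how far a low signal lies above background is not known here.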
